A study of Mus musculus with 3 samples.

Results

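Collagen VI is described here through 5 of its chain genes, Col6a1, Col6a2, Col6a3, Col6a5 and Col6a6, which are 5 of the 31053 features counted in single cells of inguinal white adipose tissue of the mouse, a subcutaneous fat depot. The chains were taken by gene symbol and read in every cell class and library. Stromal cells were also split by whether a cell held a count of Wt1 or Tcf21, and by whether it held one of Pi16 or Dpp4. The tissue was dissociated, dead cells and red cells were removed, and the stromal and vascular cells were captured with 10x Genomics 3' v3 reagents, and a NextSeq 550 was used for sequencing. There was 1 library of each genotype. The first was TERT +/+ (called wild type), whose sample title also carries the unexplained abbreviation PBS. The second was Pdgfra-Cre; TERT fl/fl (called Pdgfra-Cre) and the third was Pdgfrb-Cre; TERT fl/fl (called Pdgfrb-Cre). Tert is the gene of telomerase's catalytic protein, and each Cre deletes the floxed gene in cells that have used the promoter of the respective platelet-derived growth factor receptor, so cells without that history keep it. The labels do not say how many animals went into a library. Genotype, library and the make-up of the tissue taken cannot be told apart, and each difference below is a difference between libraries, with no test. Values are listed in the order wild type, Pdgfra-Cre, Pdgfrb-Cre.

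Collagen VI is a short-chain collagen that forms beaded microfilaments next to basement membranes and around fat, muscle and stromal cells. Its monomer joins the alpha 1 and alpha 2 chains, from Col6a1 and Col6a2, with a longer chain, which is most often alpha 3 from Col6a3 and can be alpha 5 or alpha 6 from Col6a5 or Col6a6. Monomers are joined inside the cell before secretion, and in adipose tissue the matrix they form surrounds adipocytes; a cleaved end of alpha 3, endotrophin, is known as a signal there.

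On GRCm38, in the GENCODE M21 annotation, all 5 genes lie on the minus strand. Col6a1 (ENSMUSG00000001119, chr10:76708792-76726168) and Col6a2 (ENSMUSG00000020241, chr10:76595762-76623630) are neighbours 85161 bases apart with 0 protein-coding genes between them. Col6a5 (ENSMUSG00000091345, chr9:105856078-105960643) and Col6a6 (ENSMUSG00000043719, chr9:105687809-105828160) lie 27917 bases apart, likewise with 0 protein-coding genes between. Col6a4 (chr9:105989454-106096783) follows on the other side of Col6a5, and Col6a3 (ENSMUSG00000048126, chr1:90765923-90843971) stands alone. The annotation places Gm38314 on the opposite strand within Col6a6 and Gm36970 overlapping Col6a3, and the sources used here do not say whether counting used strand.

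The 250 bases before the RefSeq start (GRCm38.p6, minus strand) are shown for the neighbouring pair whose levels were within 1.5-fold between libraries and for the neighbouring pair that differed. Capitals mark matches, on either strand, to the AP-1 motif TGANTCA or to the GC box GGGCGG.

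Col6a1, chr10:76726045-76726294: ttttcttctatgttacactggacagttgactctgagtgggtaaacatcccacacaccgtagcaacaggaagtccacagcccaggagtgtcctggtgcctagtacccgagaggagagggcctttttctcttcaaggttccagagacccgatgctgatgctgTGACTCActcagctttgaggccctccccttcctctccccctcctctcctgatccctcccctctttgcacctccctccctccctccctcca

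Col6a2, chr10:76623631-76623880: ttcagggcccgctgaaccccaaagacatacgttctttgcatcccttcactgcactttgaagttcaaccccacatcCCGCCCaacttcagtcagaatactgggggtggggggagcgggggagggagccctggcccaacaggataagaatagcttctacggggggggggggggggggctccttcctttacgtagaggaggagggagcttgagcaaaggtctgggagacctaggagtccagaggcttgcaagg

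Col6a5, chr9:105960644-105960893: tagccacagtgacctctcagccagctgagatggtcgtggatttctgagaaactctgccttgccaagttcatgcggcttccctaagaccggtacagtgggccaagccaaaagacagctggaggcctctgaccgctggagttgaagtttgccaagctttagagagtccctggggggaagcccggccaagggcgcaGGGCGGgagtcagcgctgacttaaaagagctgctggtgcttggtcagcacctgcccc

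Col6a6, chr9:105828086-105828335: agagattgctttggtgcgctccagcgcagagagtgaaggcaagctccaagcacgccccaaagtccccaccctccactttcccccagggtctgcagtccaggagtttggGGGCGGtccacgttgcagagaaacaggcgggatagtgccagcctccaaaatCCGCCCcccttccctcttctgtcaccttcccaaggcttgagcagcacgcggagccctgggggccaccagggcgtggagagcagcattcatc

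The GC box was found 1 time before Col6a2 and Col6a5, 2 times before Col6a6 and 0 times before Col6a1 and Col6a3, and 32.7% of the 32851 RefSeq windows of the same length held it. The AP-1 motif was found before Col6a1 alone of the 5, 90 bases before the start, and 6.75% of windows held it. The E-box CANNTG, the general class that TCF21 binds, was found 3 times before Col6a5, 1 time before Col6a1 and 0 times before the other chains (66.2% of windows). The TATA box TATAAA, held by 12.4% of windows, was found before none of the 5. The same was true of the CCAAT box, spelled CCAAT (33.8% of windows), and of GCGTGGGNG, a motif of the EGR and WT1 type (1.65% of windows). No match of one motif overlapped a match of another among those capitalised. These are matches of letters and no evidence of binding. The RefSeq start used for Col6a1 lies 124 bases, and that for Col6a6 75 bases, inside the GENCODE gene.

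The libraries held 4124, 2310 and 4355 barcodes with 13352288, 14438471 and 30826733 unique molecular identifiers (UMIs, counted molecules), of which 2668, 1409 and 3903 cells were kept. Stromal cells are clusters named from 10 markers including Pdgfra, Dcn and Col1a1, all 10 of them at 10 or more UMIs per 1000000 (CPM) in each library. They numbered 250, 621 and 572, with medians of 1663.5, 9677 and 10537 UMIs per cell, so the wild-type cells were the shallowest. They fell into 5 clusters, of which cluster 26 held 492 of the Pdgfra-Cre cells and 1 other, cluster 19 held 337 Pdgfrb-Cre and 6 Pdgfra-Cre cells, and cluster 21 held 30 wild-type cells alone. Cluster 1 (182, 22 and 22 cells) and cluster 18 (38, 101 and 212 cells) were shared. The Pdgfra-Cre library stood apart in other ways: Wt1 and Tcf21 gave 837 and 690 UMIs in its stromal cells, against 1 and 3 in wild type and 4 and 6 in Pdgfrb-Cre. It alone had a mesothelial-like class (123 cells), and Hbb-bs, a haemoglobin gene, stood at 1422 CPM in its stromal cells against 8.10 and 1.14. Tert itself gave 3, 4 and 1 UMIs in stromal cells, too few to check the deletion. Libraries shared 6, 4 and 8 barcode sequences with another library, and 1, 2 and 0 of these were stromal cells.

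Stromal cells of the 3 libraries held Col6a1, Col6a2 and Col6a3 at levels within 1.5-fold of each other, whereas Col6a5 and Col6a6 differed several-fold, with Pdgfra-Cre highest and Pdgfrb-Cre lowest for both. Levels are CPM, the UMIs of a gene over all UMIs of the class. With 3' counting 1 transcript gives 1 tag whatever its length, so levels of different genes can be set side by side, although capture can differ between genes. Intervals are 95% and cover counting error only: they leave out the spread between cells and between animals.

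Col6a1, the alpha 1 chain that every collagen VI monomer needs, gave 570, 3752 and 3941 UMIs, or 660 CPM (607 to 716), 657 CPM (637 to 679) and 642 CPM (622 to 662). The 3 intervals overlap. Col6a2, the alpha 2 chain that pairs with it, stood at 341 CPM (304 to 383), 424 CPM (407 to 441) and 328 CPM (314 to 343). Pdgfra-Cre was the highest, 1.24-fold (1.10 to 1.41) above wild type, while Pdgfrb-Cre and wild type overlapped. Col6a3, the alpha 3 chain that also yields endotrophin, ran the other way, at 544 CPM (496 to 595), 382 CPM (366 to 399) and 488 CPM (471 to 506). Pdgfra-Cre was 1.42-fold (1.29 to 1.57) below wild type.

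Col6a5, the alpha 5 chain, gave 37 UMIs in wild type, 3856 in Pdgfra-Cre and 16 in Pdgfrb-Cre, which are 42.8 CPM (30.1 to 59.0), 676 CPM (654 to 697) and 2.61 CPM (1.49 to 4.23). No intervals overlap. In the Pdgfra-Cre library the alpha 5 chain thus stood at the level of Col6a1, and in the Pdgfrb-Cre library it was close to absent. Pdgfra-Cre was 15.8-fold (11.4 to 22.4) above wild type, and Pdgfrb-Cre was 16.4-fold (8.92 to 31.6) below it. Both comparisons use the same wild-type cells. Between the Cre libraries the ratio was 259 (159 to 454). The 10 markers of mesothelial-like cells, the other class with much Col6a5, summed to 10.4, 13.0 and 30.3 CPM in these stromal cells, with 7, 0 and 6 of them at 0. Of 5 red cell markers 0, 4 and 0 reached 10 CPM, with a sum of 2611 CPM in Pdgfra-Cre, and the 10 markers of T cells summed to 282, 11.9 and 22.8 CPM. Their part in the differences was not tested.

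Col6a6, the alpha 6 chain, kept the same order on a smaller scale, with 55.6 CPM (41.0 to 73.7), 207 CPM (195 to 219) and 18.4 CPM (15.2 to 22.1). Pdgfra-Cre was 3.72-fold (2.79 to 5.07) above wild type and Pdgfrb-Cre was 3.02-fold (2.11 to 4.27) below. The ratio of Pdgfra-Cre to Pdgfrb-Cre was 11.2 (9.25 to 13.7). Col6a4, the remaining family member in the mouse, gave 1, 1 and 0 UMIs in stromal cells.

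**Figure D1:**
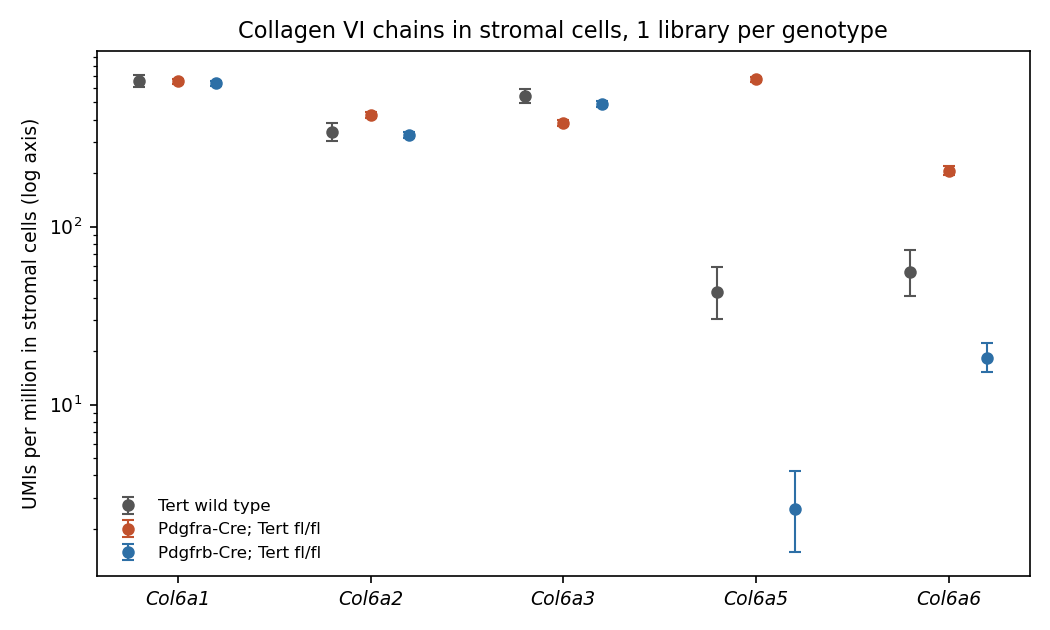
Level of the 5 chains in stromal cells of each library, in CPM on a log axis, with exact Poisson 95% intervals as bars. Col6a1, Col6a2 and Col6a3 sit together for the 3 libraries, and Col6a5 spreads from 2.61 CPM in Pdgfrb-Cre to 676 CPM in Pdgfra-Cre.

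A feature was counted as past 2-fold when its log2 ratio, with 10 CPM added to both sides, reached 1 or -1, among features of at least 10 CPM in either library. Against wild type, 2 of the 5 chains (Col6a5 and Col6a6) were past 2-fold higher in Pdgfra-Cre and 0 lower, where 7.07% of 9115 features were higher and 6.55% lower. In Pdgfrb-Cre, 0 of 5 were higher and the same 2 were lower, against 5.59% and 4.6% of 8790 features. Between the Cre libraries 2 of 5 were higher in Pdgfra-Cre and 0 lower, against 5.32% and 5.53% of 8604 features. The median log2 ratio over all features was 0.02, -0.10 and 0.14 in these comparisons. For scale, Col1a1, a chain of the fibrillar collagen I, stood at 8286, 899 and 2693 CPM in the same cells.

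Since the stromal clusters were divided among libraries, the chains were also compared inside the shared cluster 18. Its cells were not alike across libraries. Their median depths were 2270.5, 1685 and 8399 UMIs, and 2.63%, 35.6% and 0.472% of them held a Wt1 or Tcf21 UMI. The part of these in the differences was not tested. Col6a5 there was 80.8, 568 and 4.30 CPM, and Pdgfra-Cre remained 7.03-fold (4.22 to 12.6) above wild type. Col6a6 was 70.7, 158 and 15.6 CPM in that cluster. Col6a1, Col6a2 and Col6a3 differed more within the cluster than over all stromal cells. Col6a1 was 717, 620 and 1189 CPM and Col6a2 338, 422 and 675 CPM. Col6a3 was 626, 349 and 1277 CPM, with Pdgfrb-Cre 2.04-fold (1.70 to 2.46) above wild type. In the other shared cluster, cluster 1, Col6a5 gave 21, 14 and 0 UMIs, which is 36.7 CPM in wild type and 72.0 CPM in Pdgfra-Cre, and the interval of their ratio (0.922 to 4.04) includes 1. Col6a6 in cluster 1 gave 30, 4 and 2 UMIs, with no excess in Pdgfra-Cre. The chains that were level over all stromal cells were not so here, with 631, 412 and 287 CPM of Col6a1 and 509, 211 and 189 CPM of Col6a3. Of cluster 1's Pdgfra-Cre cells, 86.4% held a Pi16 or Dpp4 UMI. Without cluster 26, the Pdgfra-Cre log2 ratio to wild type was 2.75 for Col6a5 and 0.74 for Col6a6, so that Col6a6 was no longer past 2-fold. In stromal cells of at least 3000 UMIs (62, 523 and 525 cells) the same 2 chains were past 2-fold in each comparison. The share over all features was not taken in these cells, so the count has no background.

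The make-up of the collagen VI transcripts differed accordingly. Of the UMIs of the 5 chains in stromal cells, Col6a5 gave 2.61% (1.84 to 3.57), 28.8% (28.0 to 29.6) and 0.176% (0.101 to 0.286). Col6a3 gave 33.1% (30.7 to 35.6), 16.3% (15.7 to 16.9) and 33.0% (32.0 to 34.0). In wild type and Pdgfrb-Cre Col6a3 gave more UMIs than Col6a5 and Col6a6 together, while in Pdgfra-Cre Col6a5 gave more than Col6a3. Which chains were joined in the protein was not measured. Col6a6 gave 3.38%, 8.81% and 1.24%. The 5 chains together stood at 1643 CPM (1559 to 1731), 2346 CPM (2306 to 2386) and 1479 CPM (1449 to 1510).

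**Figure D2:**
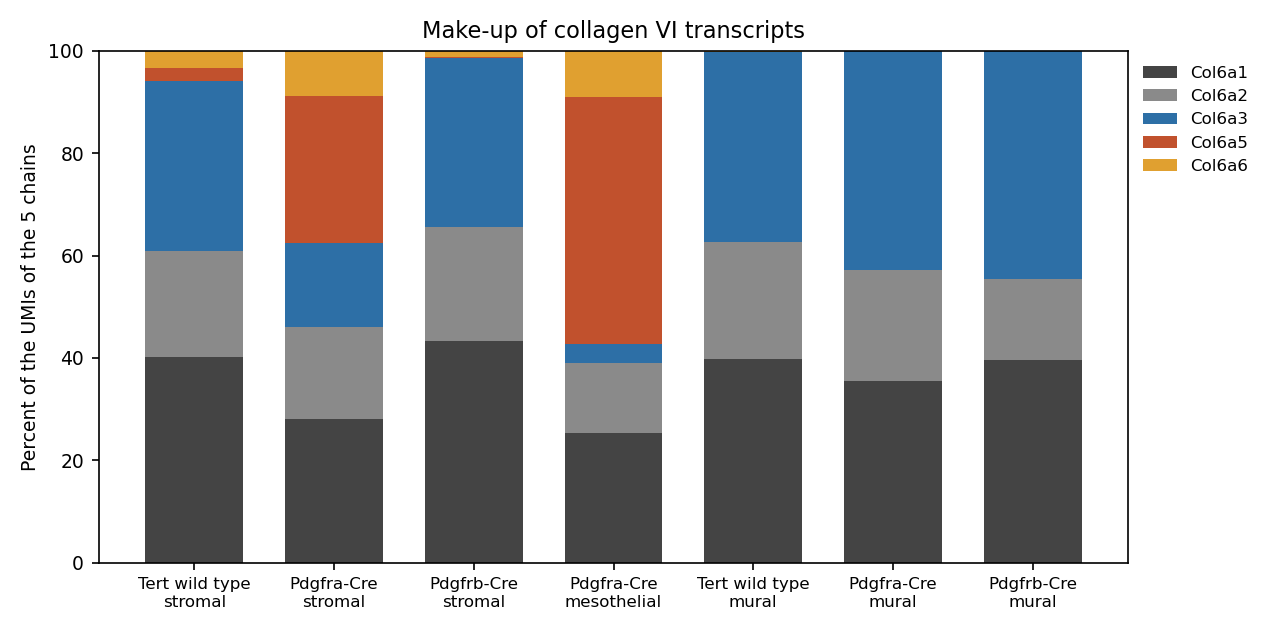
Share of each chain among the UMIs of the 5 chains, in percent, for stromal cells and mural-like cells of each library and for mesothelial-like cells of the Pdgfra-Cre library. Col6a5 makes up 28.8% in Pdgfra-Cre stromal cells and 48.1% in mesothelial-like cells, and mural-like cells hold 0 Col6a5 UMIs.

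Cell classes differed in which chains they held. In every library most of each chain's UMIs among kept cells lay in stromal cells: 72.1%, 89.5% and 95.1% of those of Col6a1, and 63.7%, 94.1% and 94.6% of those of Col6a3. For Col6a5 the shares were 94.9% (37 of 39 UMIs), 84.7% and 69.6% (16 of 23 UMIs). Stromal cells themselves were 9.37%, 44.1% and 14.7% of kept cells. In a library, fewer cells of a class and less RNA per cell cannot be told apart from such sums.

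Mural-like cells, the pericytes and smooth muscle cells of vessels (161, 32 and 44 cells), held alpha 1, 2 and 3 and, in all, 0 UMIs of Col6a5 and 1 of Col6a6. Col6a1 stood at 209 CPM (175 to 247), 143 CPM (107 to 186) and 122 CPM (96.5 to 152) in them, and Col6a3 at 194, 172 and 137 CPM. Col6a2 was 120, 87.3 and 48.7 CPM, with Pdgfrb-Cre 2.45-fold (1.61 to 3.83) below wild type. Col6a5 gave 0 UMIs in each library, which allows up to 4.54, 7.94 and 4.56 CPM at 3 counts, and Col6a6 gave 1, 0 and 0. In wild type, the stromal level of Col6a5 was at least 9.43-fold above that limit, and in Pdgfra-Cre at least 85.1-fold.

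Mesothelial-like cells, the flat lining cells of body cavities, were present as a class of their own in the Pdgfra-Cre library and carried the alternative chains without much alpha 3. Col6a5 was the leading chain there with 392 CPM (363 to 422), followed by Col6a1 with 206 CPM (185 to 228), Col6a2 with 112 CPM (96.8 to 129) and Col6a6 with 74.1 CPM (61.9 to 88.0). Col6a3 was at 30.4 CPM (22.8 to 39.8), 12.6-fold (9.57 to 16.8) below the stromal cells of the same library, where Col6a5 was 1.72-fold (1.59 to 1.87) higher than in mesothelial-like cells. Col6a4 gave 12 UMIs, or 6.89 CPM (3.56 to 12.0), in these cells.

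Blood endothelial-like cells (396, 96 and 174) held Col6a1 at 24.2, 19.2 and 21.5 CPM, with overlapping intervals, and Col6a3 at 45.6 CPM (35.4 to 57.9), 20.8 CPM (11.1 to 35.6) and 19.3 CPM (13.4 to 26.8). T-like cells were taken as a measure of free RNA taken up by droplets. In them the 5 chains summed to 6.14, 11.3 and 2.88 CPM. Col6a5 gave 0 UMIs in 608 wild-type T-like cells, 8 UMIs in 278 Pdgfra-Cre T-like cells (4.78 CPM, 2.06 to 9.41) and 0 in 1733 of Pdgfrb-Cre. The 2.61 CPM of Col6a5 in Pdgfrb-Cre stromal cells, from 16 UMIs, is above the limit of 0.27 CPM that those T-like cells allow. It is not above the macrophage- or monocyte-like cells of that library, which held 7 Col6a5 UMIs in 2 of 124 cells, or 6.12 CPM (2.46 to 12.6), an interval that overlaps the stromal one. The same class held 0 Col6a5 UMIs in wild type (67 cells) and in Pdgfra-Cre (76 cells).

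**Figure D3:**
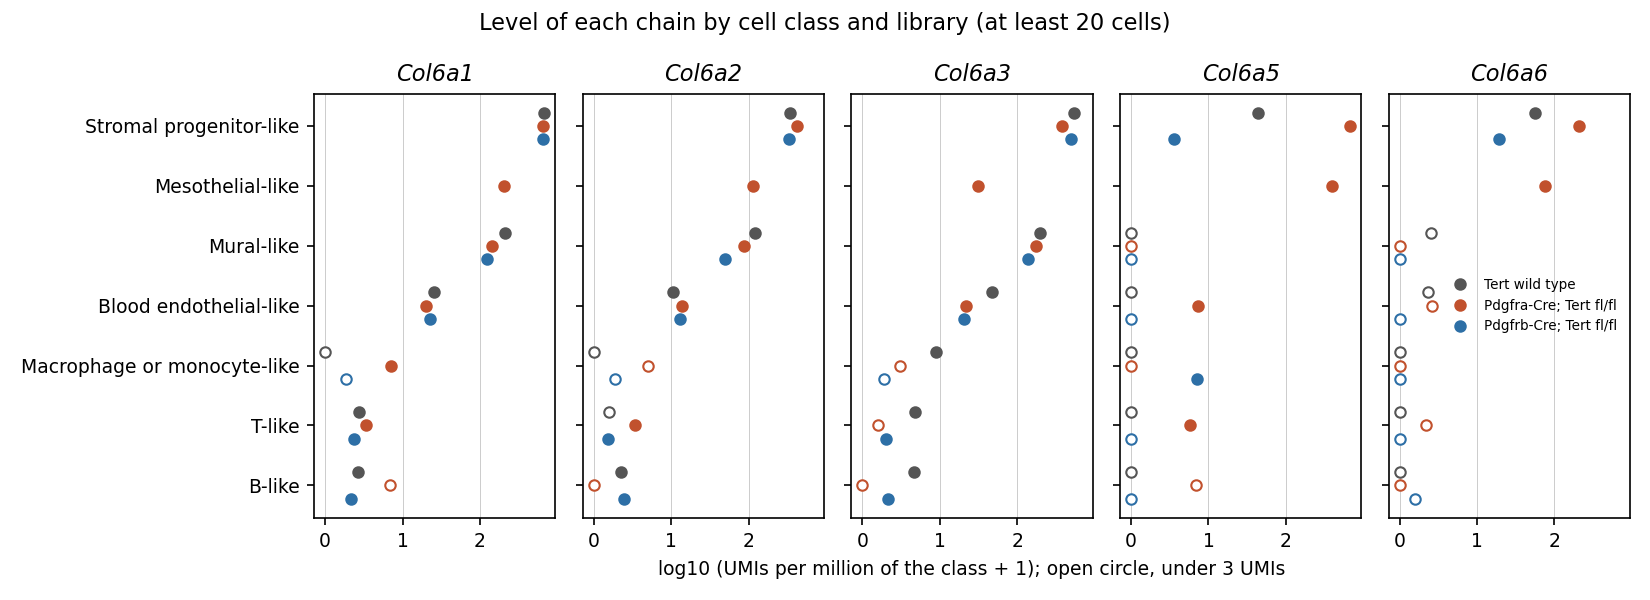
Level of each chain by cell class and library, as log10 of CPM plus 1, with open circles for under 3 UMIs. Drawn are stromal, mesothelial, mural, blood endothelial, macrophage or monocyte, T and B classes with at least 20 cells in a library. Other classes are not drawn. Stromal progenitor-like cells have the highest level of each chain in each library except Col6a5 in Pdgfrb-Cre (2.61 CPM against 6.12 CPM in macrophage- or monocyte-like cells), mural-like cells hold 0 Col6a5 UMIs and 1 Col6a6 UMI, and mesothelial-like cells hold Col6a5 at 392 CPM and Col6a3 at 30.4 CPM.

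Across 22 groups of cells (a class in a library with at least 50 cells), Col6a1 and Col6a2 followed each other most closely, with a Pearson r of 0.994 between their log2 levels. Col6a5 and Col6a6 had an r of 0.911, and Col6a3 and Col6a5 one of 0.511. Groups of a library share its depth and its free RNA, and Col6a5 reached 10 CPM in 3 of the 22 groups and Col6a6 in 5, so these values are descriptions and those of Col6a5 rest on few groups. Of 10639 other features, those most like Col6a1 were Slit3 (0.993), Pcolce, Meg3, Lox and P3h3. Those most like Col6a2 were C1qtnf2 (0.991), Slit3, Lox, P3h3 and Pcolce. Those most like Col6a3 were Prrx1 (0.982), a mesenchymal transcription factor, Tmem100, Meg3, Tgfb2 and Ebf2. Tenm3 (0.954), Klf15, Fibin and Slc43a1 were among the 5 most like Col6a5, and Acss3, Hoxc4 (0.936), Gpc3 and Vegfd among the 5 most like Col6a6. Slit3, Lox, P3h3 and Pcolce, a procollagen processing enhancer, stood in the lists of both Col6a1 and Col6a2.

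Single cells differed in depth, so shares of cells with a UMI were taken after thinning each cell to 1000 UMIs, which left 217, 608 and 569 stromal cells. Col6a5 was then seen in 3.23% (1.31 to 6.53), 37.5% (33.6 to 41.5) and 0.176% (1 of 569 cells) of them, and without thinning in 8.80%, 67.6% and 1.75%. Col6a6 was seen in 5.53%, 20.9% and 1.76% of thinned cells. For the alpha 1 chain the shares were closer, at 38.2%, 46.9% and 37.4%. As a background, 2.88% of unthinned Pdgfra-Cre T-like cells, with a median of 5156.5 UMIs, held a Col6a5 UMI.

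In the Pdgfra-Cre library Col6a5 was uneven over cells. The 62 stromal cells with the most Col6a5 UMIs, 10% of the class, held 53.9% of them, against 33.2% for Col6a1 and 33.9% for Col6a6. A single cell held 326 Col6a5 UMIs of 48850 in all, and the next held 80. Of these 62 cells, 58 also held a Wt1 or Tcf21 UMI, and 50 held 0 UMIs of the 10 mesothelial markers, of which a mesothelial-like cell held a median of 61. Their median depth was 13043 UMIs, and of all Pdgfra-Cre stromal cells of 10000 to 15000 UMIs 88.0% held a Wt1 or Tcf21 UMI. Of the Pdgfra-Cre stromal cells with Col6a5, 79.0% also held Col6a6, against 51.2% of those without, at median depths of 10519.5 and 7388 UMIs.

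Wt1 and Tcf21 encode transcription factors known from visceral fat progenitors and mesothelium. A UMI of either was seen in 2 of 250 wild-type, 428 of 621 Pdgfra-Cre and 3 of 572 Pdgfrb-Cre stromal cells, so the split could be read in Pdgfra-Cre alone. Cells with either factor held Col6a5 at 739 CPM and those with neither at 425 CPM, a ratio of 1.74 (1.58 to 1.91). The cells with either factor include the single cell of 326 Col6a5 UMIs. Col6a1, Col6a2 and Col6a3 were lower in the cells with either factor, at 640 against 727 CPM, 402 against 507 CPM and 355 against 490 CPM. Col6a6 was 203 against 219 CPM, a ratio of 0.928 (0.807 to 1.07). None of the 5 chains passed 2-fold, where 0.128% of 8585 features were higher and 0.221% lower.

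Cells with neither factor still differed from wild type. In these 193 Pdgfra-Cre cells Col6a5 was 9.68-fold (6.92 to 13.9) and Col6a6 3.84-fold (2.81 to 5.35) above the 248 wild-type cells with neither. In cells with none of Wt1, Tcf21, Pi16 and Dpp4 (99 and 150 cells) Col6a5 was 63.7 CPM in wild type and 448 CPM in Pdgfra-Cre, a ratio of 7.04 (4.39 to 12.0). Not seeing a factor does not show that a cell lacks it: the median depth was 5785 UMIs in cells with neither and 10699.5 UMIs in cells with either.

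By the number of Wt1 and Tcf21 UMIs in a cell, Col6a5 stood at 425 CPM with 0, 431 CPM with 1, 490 CPM with 2 and 947 CPM with 3 or more, in 193, 125, 83 and 220 cells. The last group includes the single cell of 326 Col6a5 UMIs, which held 3 Wt1 and Tcf21 UMIs. The median depth of the cells went from 5785 UMIs at 0 to 11521 UMIs at 3 or more. At matched depths Col6a5 was higher in cells with either factor in each of the 3 ranges with at least 20 cells on both sides: 875 against 463 CPM below 5000 UMIs, 598 against 441 CPM from 5000 to 10000, and 690 against 300 CPM from 10000 to 15000. When cells were thinned to 1000 UMIs before the split, the log2 ratio was -0.05, with 132 cells seen and 476 not. Before thinning 428 cells held either factor, so many of the 476 hold one that thinning removed. That split therefore cannot show whether cells with a factor lack the excess. Asking for at least 2 UMIs of Wt1 and Tcf21 gave a log2 ratio of 0.95 (303 and 318 cells), against 0.78 with 1 UMI. The cell of 326 Col6a5 UMIs was not left out under these 2 rules, and its part was not tested. The Col6a5 ratio thus depended on how the factors were detected, and the part of depth in it was not tested further.

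**Figure D4:**
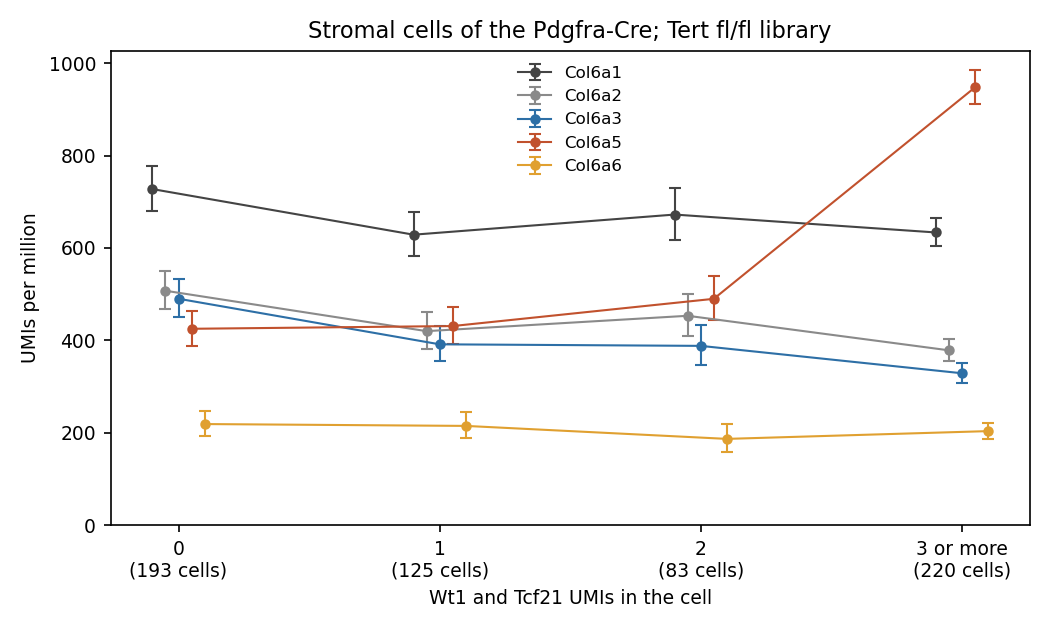
Level of the 5 chains, in CPM with exact Poisson 95% intervals, in Pdgfra-Cre stromal cells by the number of Wt1 and Tcf21 UMIs in the cell. Col6a5 stands at 425 CPM with 0 UMIs and at 947 CPM with 3 or more, while Col6a3 goes from 490 to 329 CPM.

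Pi16 and Dpp4 mark interstitial progenitors of the stroma, the cells of the septa between fat lobules. A UMI of either was seen in 150 of 250 (60.0%), 149 of 621 (24.0%) and 423 of 572 (74.0%) stromal cells. Depth differed between libraries, and after thinning to 1000 UMIs either was seen in 110 of 217, 53 of 608 and 360 of 569 cells. A cell without a UMI of these genes may still express them. In wild type and Pdgfrb-Cre the cells without either held more of the alpha 1, 2 and 3 chains, and in Pdgfra-Cre they did not to the same extent.

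In wild type, Col6a3 was 340 CPM (with) against 928 CPM (without), 2.73-fold (2.26 to 3.29) lower in the cells with Pi16 or Dpp4. Col6a2 was 243 against 527 CPM and Col6a1 500 against 961 CPM, a ratio of 0.520 (0.440 to 0.615). Of the 5 chains 2 were past 2-fold lower and 0 higher, against 7.54% and 4.94% of 9511 features. Col6a5 (33.7 against 60.1 CPM) and Col6a6 (44.3 against 76.7 CPM) rested on 37 and 48 UMIs, and the intervals of their ratios include 1.

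In Pdgfrb-Cre the same split gave wider gaps. Col6a3 was 222 CPM in cells with Pi16 or Dpp4 against 1548 CPM in those without, 6.98-fold (6.48 to 7.53) lower. Col6a2 was 212 against 789 CPM, 3.71-fold (3.40 to 4.06) lower, and Col6a1 455 against 1384 CPM, 3.04-fold (2.85 to 3.24) lower. Of the 4 chains with at least 10 CPM, 3 were past 2-fold lower and 0 higher, against 4.74% and 4.97% of 8231 features. Col6a6 was 17.9 against 20.3 CPM, with a ratio of 0.884 (0.561 to 1.44). The cells with Pi16 or Dpp4 lay mostly in cluster 19, where 98.2% held either gene. Inside cluster 18 (74 cells with and 138 without) the log2 ratios were -1.16 for Col6a3, -0.87 for Col6a2 and -0.85 for Col6a1. So 1 chain was past 2-fold there, and the share over all features was not taken inside that cluster. The gap was wider for Col6a3 than for Col6a1, and the share of Col6a3 of collagen VI UMIs was 24.4% (23.1 to 25.7) with and 41.4% (39.9 to 42.8) without Pi16 or Dpp4.

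In Pdgfra-Cre, 0 of 5 chains were past 2-fold, against 1.6% of 8556 features higher and 0.491% lower. Col6a1 was 637 against 665 CPM, Col6a2 432 against 420 CPM and Col6a3 324 against 405 CPM, a ratio of 0.801 (0.725 to 0.884) for the last. Col6a5 was 791 against 630 CPM, and without the single cell of 326 Col6a5 UMIs, which held a Pi16 UMI, 606 against 630 CPM. Pi16 and Dpp4 gave 838 and 151 UMIs in this library's stromal cells, against 12836 and 1959 in Pdgfrb-Cre. Asking for at least 2 UMIs of Pi16 and Dpp4 left 82 cells, in which Col6a5 was 326 against 740 CPM and Col6a6 82.2 against 229 CPM. Both chains were then past 2-fold lower. They were so as well when cells were thinned to 1000 UMIs before the split (314 against 709 CPM for Col6a5, 53 cells with either gene). The cell of 326 Col6a5 UMIs was not left out under these rules, and its part in the values was not tested. Cells with neither gene differed between libraries in Col6a3 more than all stromal cells did, with 928 CPM in wild type, 405 CPM in Pdgfra-Cre and 1548 CPM in Pdgfrb-Cre. The alpha 5 and alpha 6 result of the Pdgfra-Cre library therefore depends on where the line between the cells is drawn, while Col6a1, Col6a2 and Col6a3 stayed within 2-fold under each of these splits.

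**Figure D5:**
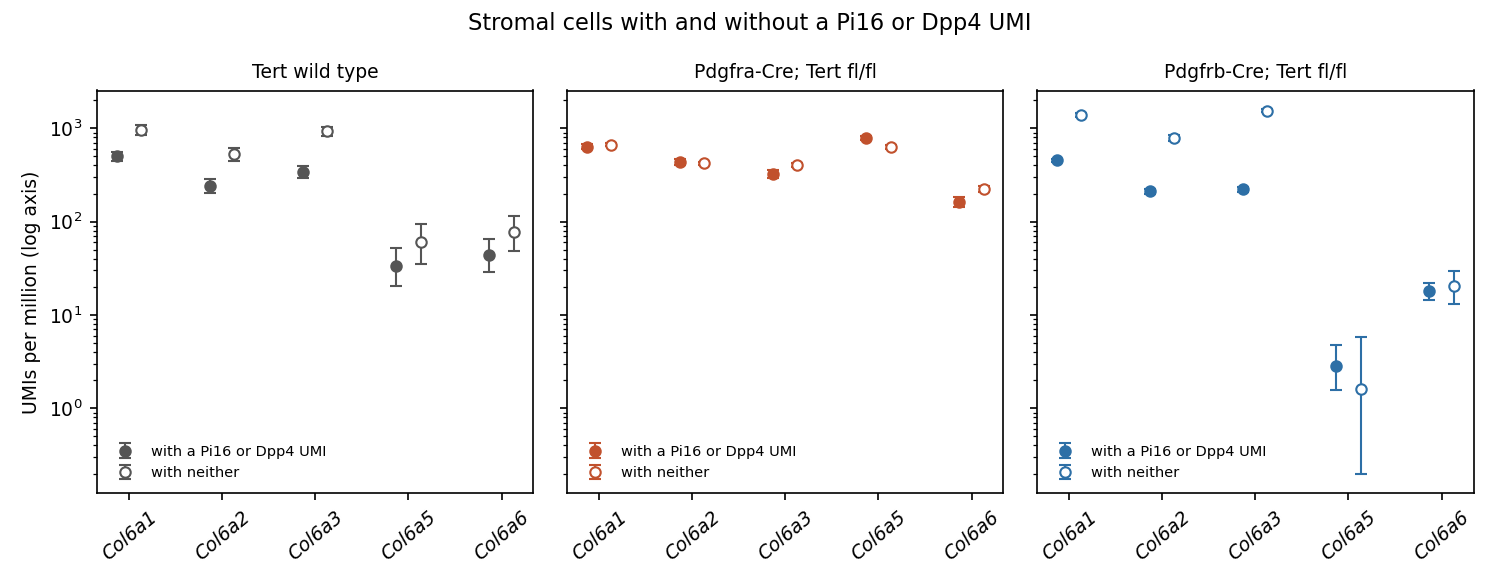
Level of the 5 chains, in CPM on a log axis with exact Poisson 95% intervals, in stromal cells with (filled) and without (open) a Pi16 or Dpp4 UMI, 1 panel per library. Col6a1, Col6a2 and Col6a3 lie apart in wild type and Pdgfrb-Cre, with Col6a3 at 222 and 1548 CPM in the latter, and close together in Pdgfra-Cre.

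The genes that act on collagen VI were read from 4 lists, with 43 genes measured (Lepre1 was not found by symbol). The lists hold receptors, matrix binders, enzymes and chaperones of chain maturation, and proteases. In stromal cells of Pdgfra-Cre against wild type, 6 of 34 genes with at least 10 CPM were past 2-fold higher and 5 lower. The shares over all features in this comparison were 7.07% and 6.55%.

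Of the receptors, 1 of 5 was past 2-fold higher and 2 lower. Antxr1, an anthrax toxin receptor that binds collagen VI, was 191 CPM in wild type, 90.1 CPM in Pdgfra-Cre and 253 CPM in Pdgfrb-Cre. Pdgfra-Cre was the lowest, 2.12-fold (1.77 to 2.53) below wild type. Itga11, a collagen-binding integrin chain, was 53.2 CPM in wild type and 20.7 CPM in Pdgfra-Cre, and Itga1, another, 3.47 CPM (3 UMIs) and 17.2 CPM, a ratio of 4.95 (1.64 to 24.4). Itgb1, the integrin beta chain with the highest level of the list, was 282 CPM in wild type and 336 CPM in Pdgfra-Cre.

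Of the matrix binders, 4 of 13 were past 2-fold higher and 2 lower in Pdgfra-Cre. Vwa1, also called WARP, a von Willebrand domain protein known to bind collagen VI, was 18.5 CPM in wild type, 357 CPM in Pdgfra-Cre and 10.9 CPM in Pdgfrb-Cre. Like Col6a5 it was highest in Pdgfra-Cre, 19.3-fold (11.8 to 33.8) above wild type. Matn2, a matrilin that links collagen VI to other matrix, had the order of Col6a5 and Col6a6 in all libraries, at 50.9, 352 and 12.1 CPM. It was 6.91-fold (5.12 to 9.53) above wild type in Pdgfra-Cre and 4.23-fold (2.84 to 6.22) below it in Pdgfrb-Cre. Col4a1, a basement membrane collagen, was 266 CPM in wild type and 773 CPM in Pdgfra-Cre, and Fmod, a small proteoglycan, 11.6 CPM and 38.9 CPM. Fn1, fibronectin, was 2642 CPM in wild type, 434 CPM in Pdgfra-Cre and 2956 CPM in Pdgfrb-Cre, so that Pdgfra-Cre was 6.09-fold (5.75 to 6.45) below wild type. Matn4, another matrilin, was 49.8 CPM in wild type and 6.31 CPM in Pdgfra-Cre. Dcn, decorin, had the highest level of the list, with 11750 CPM in wild type and 22559 CPM in Pdgfra-Cre.

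Of the genes of chain maturation 1 of 12, Plod2, a lysyl hydroxylase, was past 2-fold higher in Pdgfra-Cre (82.7 CPM against 32.4 CPM), and 0 were lower. Serpinh1, the collagen chaperone HSP47, was 1089 CPM in wild type and 834 CPM in Pdgfra-Cre. Of 4 proteases 1 was lower, Mmp2, a gelatinase, at 766 CPM in wild type and 372 CPM in Pdgfra-Cre. In Pdgfrb-Cre against wild type, Matn2 was the only gene of the 34 past 2-fold, where 5.59% of all features were higher and 4.6% lower. Between the Cre libraries, where 5.32% of all features were higher and 5.53% lower, 3 of 35 were higher in Pdgfra-Cre (Vwa1, Matn2 and Fmod) and 4 lower: Fn1, Antxr1, Tnxb (472 CPM against 979 CPM), a tenascin, and Bmp1 (116 CPM against 383 CPM), a procollagen protease.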

How the data were processed

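Single-cell RNA was counted in 3 libraries, 1 per genotype. The authors deposited raw counts of unique molecular identifiers (UMIs) per gene and barcode, made with Cell Ranger 3.1.0 and STAR 2.6 on mm10, per the submitters' processing notes. The cell filter asked for 500 genes or more and no more than 15% of UMIs from mitochondrial genes, and the highest Scrublet scores (0.8% per 1000 barcodes) were left out as doublets. Cells were clustered with scanpy 1.11.5 (2000 variable genes, 30 principal components, 15 neighbours, Leiden resolution 1), with the collagen VI chains left out of the variable genes, and a class was given to a cluster by its markers. Every class name means like that class by RNA markers, and the names were rebuilt here. UMIs were summed per class and library and scaled to CPM. Levels carry exact Poisson, ratios exact conditional binomial and shares Clopper-Pearson 95% intervals. These cover counting error only and can be too narrow, since UMIs of a cell are not independent. With 1 library per genotype there was no test between genotypes, and cells were not used as replicates. A level of 0 was set against 3 counts.

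The chains, partner lists and splits were chosen with earlier results of these data known. The 5 chains were named throughout. Partner genes were named when past 2-fold or with the highest level of their list, and the 5 features with the highest Pearson r were named for each chain, except for an item that is not reported here. Positions came from GENCODE M21 and promoter windows from RefSeq, in which all 5 chains were found. The ratio and interval scripts were tested on simulated data. Alternatives changed the cell filter, doublets, clustering, scaling, the CPM added, the CPM minimum and the detection rule. Those on cluster 18, the Pdgfra-Cre cluster, deep cells and the cell with the most Col6a5 were added after seeing the data.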

Additional observations from a re-analysis of the deposited data

Results flagged for a closer look

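Some chains differed between libraries in opposite directions in stromal cells with and without Pi16 or Dpp4, with the counting intervals of both ratios on opposite sides of 1. None of these differences was tested, since each genotype is 1 library. Values are log2 ratios, first in cells with either gene and then in cells with neither. For Col6a1 they were 0.34 and -0.52 in Pdgfra-Cre against wild type, and 0.48 and -1.05 in Pdgfra-Cre against Pdgfrb-Cre. For Col6a2 they were 0.81 and -0.32 in Pdgfra-Cre against wild type, and 0.99 and -0.89 against Pdgfrb-Cre. For Col6a3 they were -0.60 and 0.73 in Pdgfrb-Cre against wild type, and 0.53 and -1.91 in Pdgfra-Cre against Pdgfrb-Cre. Different clusters hold most of these cells in the 3 libraries, namely cluster 1 in wild type, cluster 26 in Pdgfra-Cre and clusters 18 and 19 in Pdgfrb-Cre.

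In all stromal cells the Cre libraries lay on opposite sides of the wild-type library, which both comparisons share. The log2 ratios to wild type were 3.70 in Pdgfra-Cre and -2.07 in Pdgfrb-Cre for Col6a5, and 1.72 and -1.21 for Col6a6, again with no test of the difference.

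Barcodes that failed the cell filter or had the highest doublet scores also held these chains in the Pdgfra-Cre library, with 99.8 CPM of Col6a5 and 17.9 CPM of Col6a6. The same barcodes held 1.36 and 3.40 CPM in wild type, and 1.05 and 0.525 CPM in Pdgfrb-Cre.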

How the results depend on the processing

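No value past 2-fold in the main analysis changed direction, and 160 of 181 values of comparisons were labelled the same under the alternatives run (a count within 1.5 times, or a ratio within its interval). A count took higher and lower together, so a change from 2 to 3 was labelled the same. Shares over all features were not taken under the alternatives. Chains past 2-fold in Pdgfra-Cre against wild type went from 2 to 1 without cluster 26, and in Pdgfrb-Cre from 2 to 1 with a minimum of 50 CPM, under which Col6a5 was not compared. Partner genes past 2-fold in Pdgfrb-Cre against wild type went from 1 to 2 with a stricter cell filter, with the mean of per-cell CPM and without mitochondrial and ribosomal protein genes, and to 3 with size factors and with 1 CPM added. Between the Cre libraries they went from 7 to 12 with 1 CPM added. Chains past 2-fold by Pi16 or Dpp4 in wild type went from 2 to 4 with the stricter filter and to 1 with size factors. In Pdgfra-Cre they went from 0 to 2 when 2 UMIs were asked for and to 2 when cells were thinned first, and in Pdgfrb-Cre from 3 to 1 in cluster 18 alone. The log2 ratio of the 5 chains in stromal over mural-like cells, 1.63 in wild type, was 2.31 with the stricter filter, 2.24 and 2.42 at Leiden resolutions 0.5 and 2, 2.42 with the chains kept among the variable genes and 2.27 with the mean of per-cell CPM. In Pdgfra-Cre it went from 2.51 to 1.99 with the mean of per-cell CPM. In Pdgfrb-Cre it went from 2.23 to 2.45 with the stricter filter and to 2.46 with the chains kept. Of 620 values of single chains, 78 moved. Some within 2-fold went past it the other way: Col6a3 in Pdgfrb-Cre over wild type from a log2 ratio of -0.15 to 1.02 in cluster 18, and Col6a5 by Pi16 or Dpp4 in Pdgfra-Cre from 0.32 to -1.16 when 2 UMIs were asked for. Col6a3 between the Cre libraries went from -0.34 to -1.84 in cluster 18. In both cluster 18 comparisons Col6a3 raised the count of chains past 2-fold from 2 to 3, which was labelled the same. The causes were not tested. No library could be left out, and the Pi16 or Dpp4 split inside cluster 18 was not run in wild type and Pdgfra-Cre, where under 20 cells held either gene. No paired analysis was possible because each genotype is 1 library. Shallow wild-type cells (median 1663.5 UMIs) limit Col6a5 and Col6a6 there to 37 and 48 UMIs.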

Other observations

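In cells with none of Wt1, Tcf21, Pi16 and Dpp4, Col6a3 stood at 877, 512 and 1556 CPM in wild type, Pdgfra-Cre and Pdgfrb-Cre. All 3 of Col6a1, Col6a2 and Col6a3 were seen together in 28.8%, 72.1% and 57.3% of stromal cells, and in 9.68%, 4.61% and 8.44% of those thinned to 1000 UMIs, an order that differs from the unthinned one.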
